A study of Mus musculus with 4 samples.

Results

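The translation initiation and elongation factors of mouse platelets were described across 4 RNA-seq libraries. The members were all protein-coding genes whose symbol starts with Eif or Eef, apart from Eif2ak2, which was left out. The rule used no measured value, and it found 65 genes of 17995 listed in either deposited table, of which 64 were listed in both. Platelets are anucleate blood cells that carry RNA from their megakaryocyte precursors and can translate it. The library labelled cKO came from male mice aged 3 months with a conditional, platelet-specific knockout of HuR, and WT came from their wild-type littermates of the same sex and age. HuR is an RNA-binding protein encoded by Elavl1 that binds AU-rich stretches of messenger RNAs. Old came from wild-type male mice aged 24 months, and Young from wild-type male mice aged 3 months. A library was made from a pool of 7 mice, which leaves 1 library per group and no replicate check on any difference. The sources used here give neither the promoter that drives the deletion nor the purity of the platelets.

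Elavl1, the targeted gene, had more reads in the library labelled cKO than in WT. It had 1481 reads there against 876 in WT, and 527 in Old against 621 in Young. The reads therefore do not bear out the genotype label, and every direction given for this library is one of the library labelled cKO, not of a loss of HuR. Counts per gene cannot show whether an exon was removed. The read totals lay between 17702341 and 18472149. Platelet markers were abundant in all 4 libraries, with 825389 reads over 10 genes in the library labelled cKO, 922945 in WT, 1027589 in Old and 850299 in Young, although Gp1bb had only 1 to 14 reads. As reads scaled to the library total (RPM), erythroid markers summed to 16083 RPM in the library labelled cKO and 8258 in WT, and to 11234 in Old and 21524 in Young. Neutrophil markers summed to 41.0 RPM in the library labelled cKO and 68.4 in WT, and to 836 in Old and 31.5 in Young. B cell markers summed to 333 RPM in the library labelled cKO and 347 in WT, and to 80.0 in Old and 292 in Young. In bulk platelet RNA, fewer cells of a type and less RNA per cell cannot be told apart.

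Initiation factors bring the small ribosomal subunit and the initiator tRNA to the start codon of a messenger RNA. eIF4E binds the cap, eIF4G is the scaffold, eIF4A unwinds the leader, eIF3 holds the complex on the small subunit, and eIF2 delivers the initiator tRNA. The pathway is held back at a pair of points, by the 4E-BP proteins, which sequester eIF4E until mTORC1 phosphorylates them, and by kinases that phosphorylate the alpha subunit of eIF2. Elongation factors then deliver each aminoacyl-tRNA (eEF1A, recharged by the eEF1B subunits) and move the ribosome along (eEF2, inhibited by the kinase eEF2K). Many messenger RNAs of this machinery begin with a terminal oligopyrimidine (TOP) tract, a run of C and T at the cap that puts their translation under mTORC1 control.

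The members took 1.23% of all reads in the library labelled cKO (Wilson 95% interval 1.22% to 1.23%) and 1.14% in WT (1.13% to 1.14%). They took 0.800% in Old (0.796% to 0.804%) and 1.16% in Young (1.16% to 1.17%). Old was thus the library with the smallest share, and the other 3 lay close together. Only 4 genes, Eef1a1, Eif1, Eef2 and Eif4g2, held most of these reads: 72.4% in the library labelled cKO, 70.0% in WT, 67.1% in Old and 70.2% in Young. These intervals, like all others here, cover counting error only.

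Levels were compared between genes as RPKM, that is, reads per kilobase of gene length scaled to the library total. The gene length counts all annotated exonic bases. Eif1, which guards the choice of the start codon, was at 1565 RPKM in the library labelled cKO, 1323 in WT, 775 in Old and 1155 in Young. Eef1a1, the tRNA-delivering factor, was at 1199 in the library labelled cKO, 1149 in WT, 694 in Old and 1231 in Young. Eif1 led in every library but Young, where Eef1a1 did. Eef2, the translocase, averaged 385 RPKM over the libraries and Eif3h, a subunit of eIF3, 267. Below them came Eif4g2, a relative of eIF4G that lacks the eIF4E-binding part, at 111 and Eif4ebp1, encoding the inhibitor 4E-BP1, at 108. Eef1g, Eif4a2, Eif3f and Eif4g1 followed, with means of 74.7, 57.3, 46.9 and 43.9. The RNA of the cap-binding protein itself was scarce, with Eif4e at 1.48 RPKM in the library labelled cKO, 2.21 in WT, 1.32 in Old and 2.04 in Young. Eif2ak1, encoding the haem-regulated kinase of eIF2 alpha, was at 17.0, 21.7, 36.2 and 25.9 RPKM in the same order of libraries, while the other kinase genes, Eif2ak3 and Eif2ak4, stayed below 1. Among the 51 members with at least 100 reads in some library, the highest of the 4 levels was a median of 1.76 times the lowest, and 41 lay within 2-fold.

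**Figure D1:**
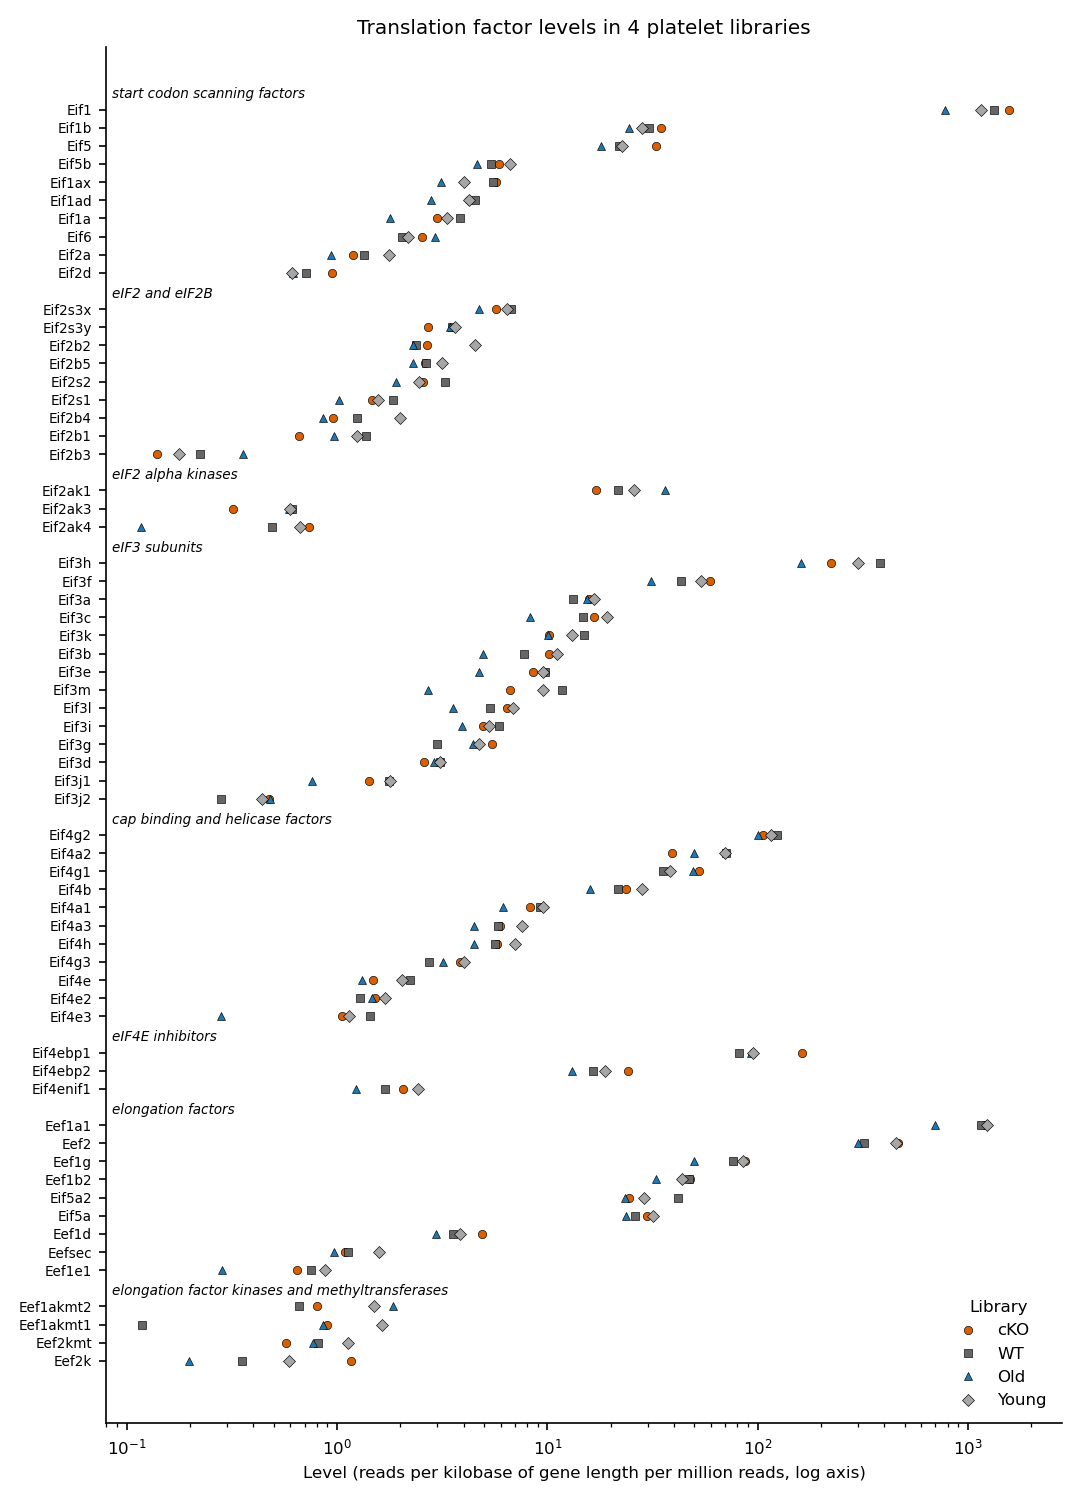
Level of each member with reads in all 4 libraries (RPKM, log axis), grouped by role and ordered by mean level, with 1 point per library. Eif1 and Eef1a1 stand above all others, and the Old points lie left of the Young points for most genes.

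The library labelled cKO was set against WT to ask how platelet RNA differs with the knockout label. A ratio is one of reads after library scaling, with its exact 95% interval in brackets. A gene is called higher or lower when it had 100 reads or more in the larger library and its whole interval lay at least 1.5-fold away from 1. Of 50 members with enough reads, 2 were called higher, 4 lower and 44 neither, and the other 15 had too few reads in both libraries, down to Eif4ebp3, a scarce 4E-BP gene listed in this table alone, with 0 reads in the library labelled cKO and 4 in WT. Over all 6273 genes tested, 7.24% were called higher and 6.28% lower, so the members' counts lie near the background. The median log2 ratio was -0.01 for the members and -0.01 for all genes. Of the 50 members, 26 had a ratio above 1 and 24 below, against 49.4% and 50.6% of all genes tested. The interval lay wholly above 1 for 16 and wholly below 1 for 18, against 32.7% and 33.3% of all genes, which is again near the background. With a bound of 2-fold, 2.52% of all genes were called higher and 1.71% lower, and of the members Eef2k alone was called higher and none lower.

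Eif4ebp1 (ENSMUSG00000031490, chromosome 8, 27260329 to 27276674, plus strand, mm10) had 6320 reads in the library labelled cKO and 3229 in WT, against 3750 in Old and 3777 in Young. The library labelled cKO stood above all the others, with a ratio of 1.92 over WT (1.84 to 2.01) and 1.84 over Young (1.76 to 1.91). Those ratios share the library labelled cKO. Over Young, 6.78% of all genes tested were called higher and 3.7% lower. Eif4ebp2, encoding the related inhibitor 4E-BP2, had a ratio of 1.42 over WT (1.33 to 1.51) and was not called. Eif4enif1, whose product carries eIF4E into the nucleus, had a ratio of 1.17 (0.967 to 1.43). Eif4e had 157 reads in the library labelled cKO and 239 in WT, a ratio of 0.645 (0.524 to 0.793) that was not called. The per-length level of Eif4ebp1 was 110 times that of Eif4e in the library labelled cKO and 37.0 times in WT, and 70.3 times in Old and 46.5 times in Young.

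Because HuR binds AU-rich elements, the longest annotated 3′ UTR of each tested gene (GENCODE M21) was searched on the transcribed strand for the nonamer TTATTTATT. It was found in 2.00% of the 50 members, which is Eif4ebp1 alone, and in 7.87% of 5908 tested protein-coding genes. The site lies at chr8:27276143-27276171 on the plus strand of GRCm38, and is shown because it is the only match among the members, with the nonamer in capitals.
Eif4ebp1: ctccgaaaatTTATTTATTattatatgtt
The match is a description of the sequence and not a binding site. Over all tested genes the median log2 ratio was -0.14 with the nonamer and 0.01 without, and the median UTR length was 2720 and 1265 bases.

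Eef2k (ENSMUSG00000035064, chromosome 7, 120842831 to 120907450, plus strand), encoding the kinase that halts elongation by phosphorylating eEF2, had 152 reads in the library labelled cKO and 47 in WT, and 27 in Old against 79 in Young. Its ratio was 3.18 over WT (2.28 to 4.51), the highest of all members tested there, and 2.11 over Young (1.60 to 2.81). In the authors' deposited table it was the sole member under an adjusted p of 0.05 in this comparison, at 0.0219, where 2.05% of all genes were higher and 1.74% lower. The sources used here do not name the test behind that table, and it compares libraries, not conditions. Eef2, its substrate, had 27307 reads in the library labelled cKO and 19188 in WT, a ratio of 1.40 (1.37 to 1.42) that was not called.

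Eif4a2 (ENSMUSG00000022884, chromosome 16, 23107444 to 23114136, plus strand), a helicase of the cap complex, had 3679 reads in the library labelled cKO and 6772 in WT, against 4916 in Old and 6781 in Young. Its ratio of 0.534 over WT (0.513 to 0.556) was the lowest among the members tested, and over Young it was 0.595 (0.572 to 0.620). The gene hosts small nucleolar RNAs and overlaps Rfc4 on the other strand, and the sources used here do not say whether reads were counted by strand. Its paralogue Eif4a1 had a ratio of 0.864 (0.775 to 0.962). Eif3m and Eif3h, subunits of eIF3, were lower against WT, with 303 against 547 reads for Eif3m, a ratio of 0.544 (0.471 to 0.627), and 6397 against 11103 for Eif3h, a ratio of 0.566 (0.549 to 0.584). Eif5a2, a paralogue of the hypusine-carrying elongation factor eIF5A, had 2183 reads in the library labelled cKO and 3757 in WT, a ratio of 0.571 (0.541 to 0.602). WT was the highest library for these 3 genes, and against Young, with which WT shares its age, they were not called: the ratios were 0.743 for Eif3m (0.640 to 0.862), 0.797 for Eif3h (0.772 to 0.823) and 0.907 for Eif5a2 (0.857 to 0.960).

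By role, the 5 tested members of eIF2 and its exchange factor eIF2B all had ratios below 1 against WT, as had 50.6% of all genes tested. None of the 5 was called. The median over the 9 genes of the group, which include those with too few reads to be tested, was -0.40. That median was -0.21 with platelet-marker scaling and -0.25 against Young. The 10 scanning and start codon factors had a median of 0.12, which was 0.30 with platelet-marker scaling and 0.36 against Young. They were led by Eif5, the GTPase-activating partner of eIF2, at 1.45 (1.38 to 1.52). The 14 eIF3 subunits had a median of -0.06, which was -0.23 over the 13 of them tested. Eif3g, which had 191 reads in the library labelled cKO against 106 in WT, went the other way from Eif3m and Eif3h. Its ratio was 1.77 (1.39 to 2.27), not called. The cap-binding and helicase factors had a median of -0.02 and the elongation factors of 0.01. The medians of the cap-binding and elongation groups and of all 14 eIF3 subunits lie close to 0. Those of the 14 eIF3 subunits and the cap-binding group turn positive when the libraries are scaled by platelet markers. That of the cap-binding group does so too with total reads or DESeq2 size factors.

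**Figure D2:**
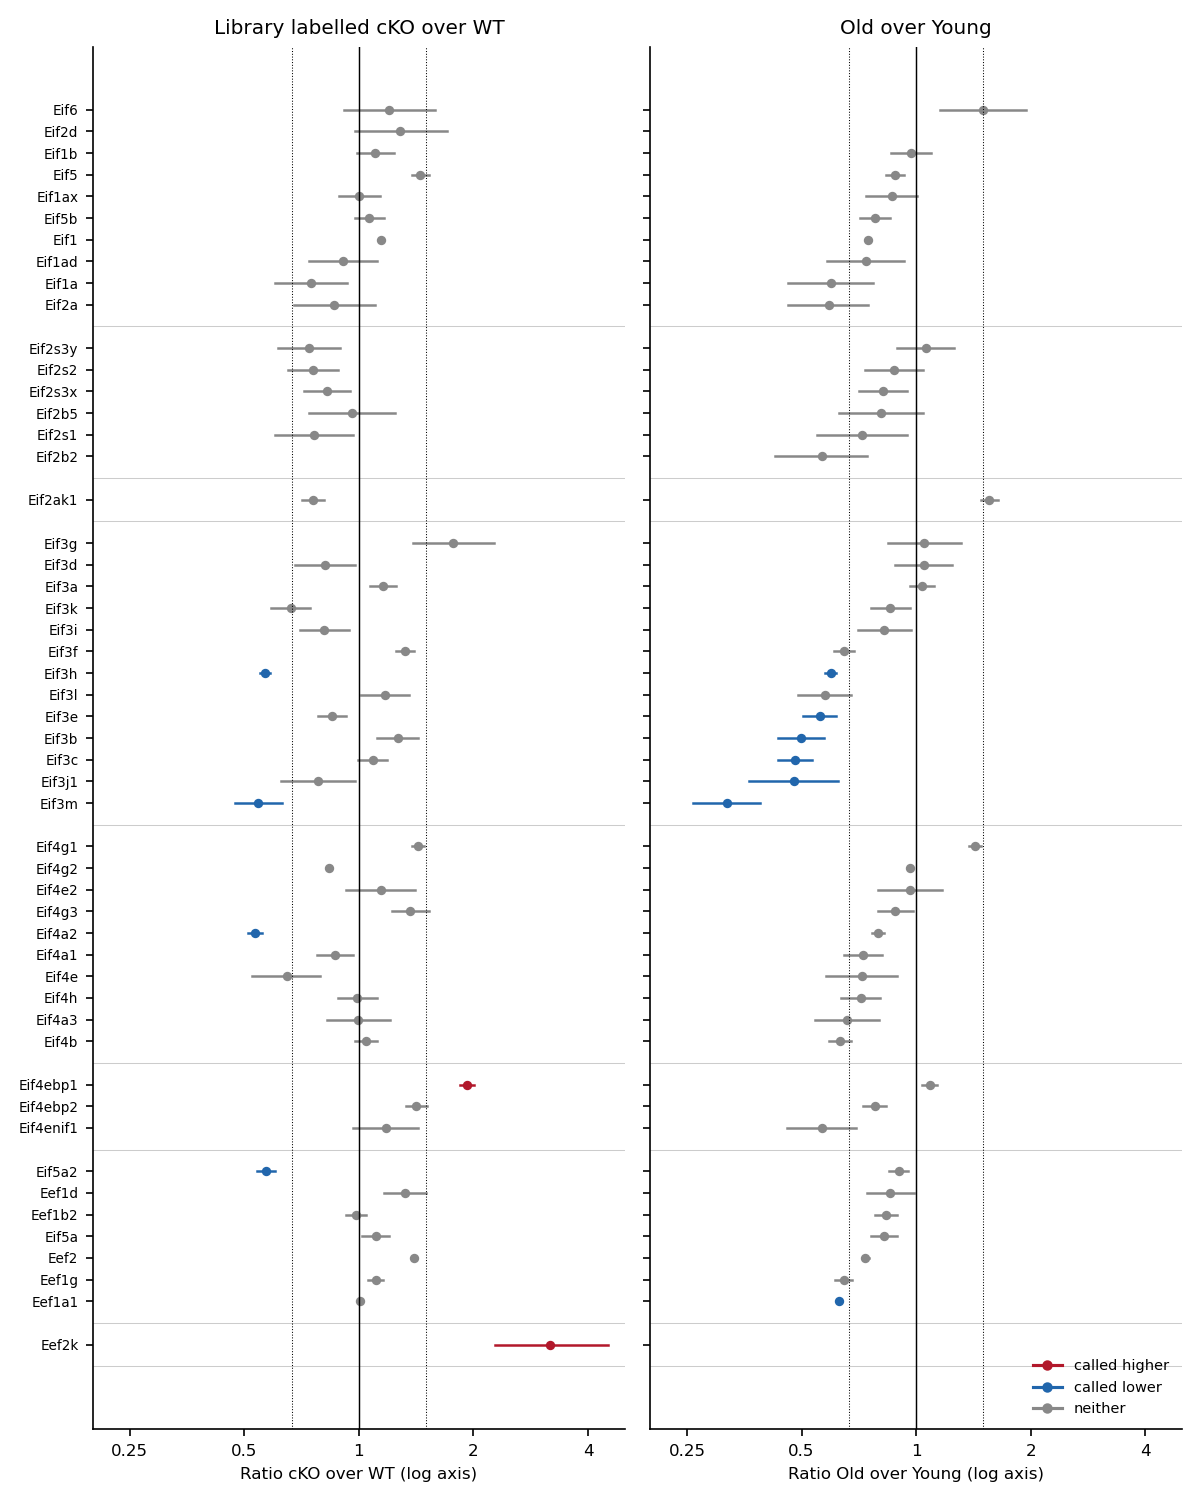
Ratio of each tested member with its 95% interval for counting error (log axes), in the library labelled cKO over WT on the left and Old over Young on the right. Members are grouped by role, from scanning factors at the top to Eef2k at the bottom, and dotted lines mark 1.5-fold. On the right most points lie below 1, and the 7 members called lower include 6 eIF3 subunits.

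Old was set against Young to ask how platelet RNA differs with age. None of 49 tested members was called higher, 7 were called lower and 42 neither. Over all 6519 genes tested, 10.4% were called higher and 12.9% lower, so the number called lower is near the background. The whole set lay lower, however: 41 of the 49 ratios were below 1, against 53.0% of all genes tested, and 8 were above 1, against 46.9%. The interval lay wholly below 1 for 36 members and wholly above 1 for 4, against 40.5% and 35.6% of all genes tested. With a bound of 2-fold, 4.26% of all genes were called higher and 4.3% lower, and of the members Eif3m alone was called lower and none higher. The median log2 ratio was -0.36 for the members and -0.06 for all genes, and the summed reads gave a ratio of 0.766 (0.760 to 0.771). The cytosolic ribosomal protein genes had a median of -0.64, with 36 of 77 called lower. Relative to TMM scaling, scaling by total reads lowers every log2 ratio of Old over Young by 0.16 and scaling by platelet markers by 0.40. In the library labelled cKO over WT, those scalings raise it by 0.05 and 0.19.

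**Figure D3:**
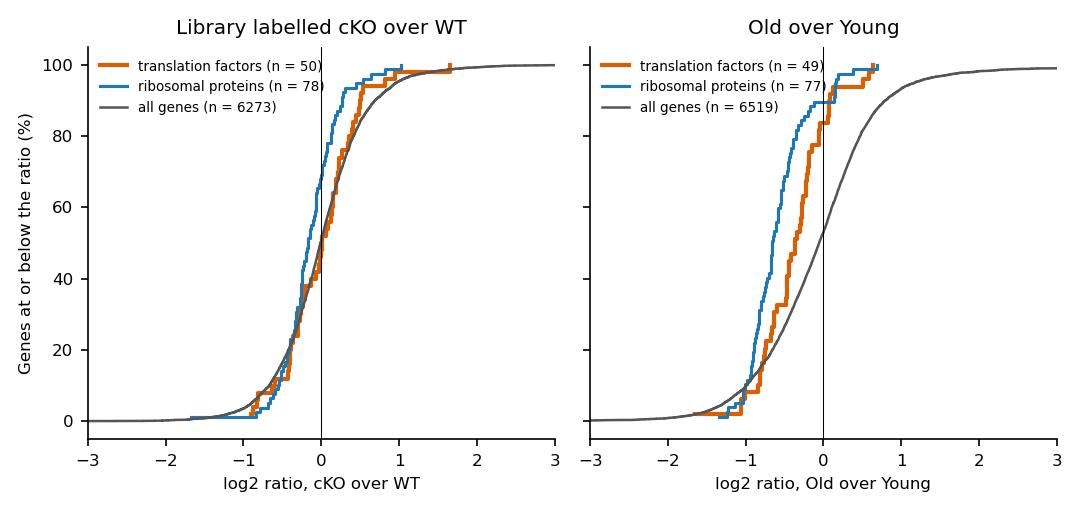
Cumulative share of tested genes (%) at or below each log2 ratio, for the members, the ribosomal protein genes and all genes, in the library labelled cKO over WT on the left and Old over Young on the right. On the left the members follow all genes, and on the right their curve lies left of that of all genes and right of that of the ribosomal proteins.

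The eIF3 complex held 6 of the 7 genes called lower in Old, of 13 subunits tested, and its median over 14 genes was -0.69. Over all genes tested, 12.9% were called lower. With total reads in place of TMM, Eif3f, Eif3l, Eef1g, Eif4b and Eif4enif1 were called lower too. Eif3m (ENSMUSG00000027170, chromosome 2, 104999656 to 105017080, minus strand) had 130 reads in Old and 447 in Young. Its ratio of 0.318 (0.260 to 0.388) was the lowest of all members tested. Against WT, which had 547 reads, the ratio of Old was 0.238 (0.195 to 0.289), also called, where 12.1% of all genes tested were called higher and 13.3% lower. That ratio shares the Old library. Old was the lowest of the 4 libraries for this gene.

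Eif3c, a core subunit, had 538 reads in Old and 1227 in Young, with a ratio of 0.480 (0.433 to 0.532). Eif3b, the core scaffold subunit, had 307 reads in Old and 674 in Young, with a ratio of 0.499 (0.434 to 0.572). Eif3e had 590 reads in Old and 1158 in Young, a ratio of 0.558 (0.504 to 0.617). For these subunits too Old was the lowest library, although Eif3b was not called against WT at 0.659 (0.569 to 0.762).

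Eif3h (ENSMUSG00000022312, chromosome 15, 51786558 to 51865523, minus strand), the most abundant subunit per length, had 4794 reads in Old and 8804 in Young, a ratio of 0.596 (0.576 to 0.618). Eif3j1, a loosely bound subunit, had 82 reads in Old and 188 in Young, a ratio of 0.478 (0.364 to 0.622), and 19.0% of its exonic length overlaps Spg11 on the other strand. Some subunits lay near 1. Eif3a, the largest core subunit, had 1475 reads in Old and 1557 in Young, a ratio of 1.04 (0.965 to 1.11), and Eif3g had 163 and 170 reads, a ratio of 1.05 (0.842 to 1.31). Within the complex the ratios thus spread from Eif3m to Eif3g by more than their counting error.

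**Figure D4:**
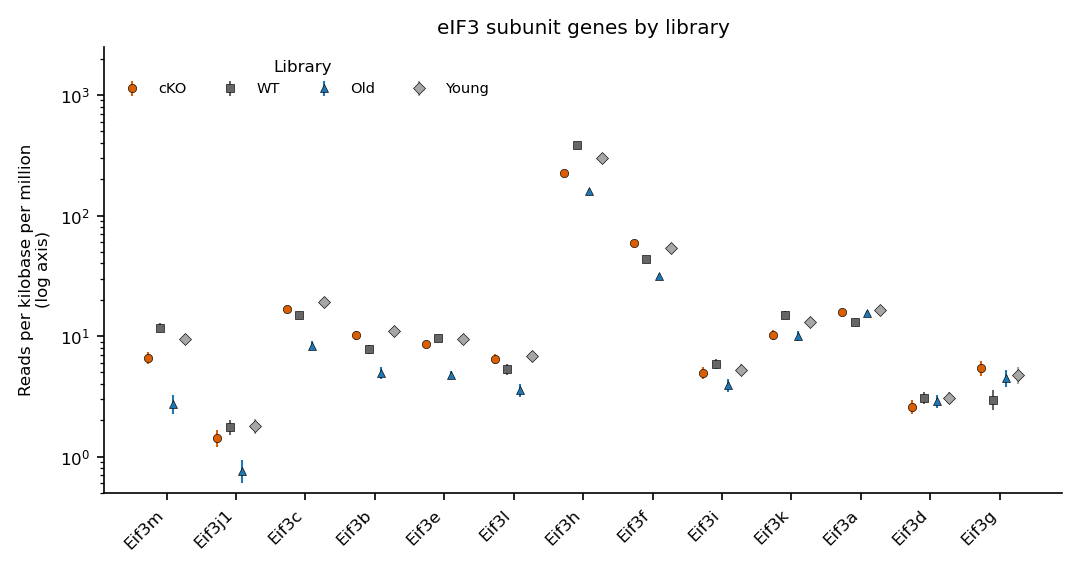
Levels of the eIF3 subunit genes with at least 100 reads in some library (RPKM, log axis), 1 point per library with its 95% Poisson interval for counting error, ordered by the ratio of Old over Young. From Eif3m to Eif3f the Old point is the lowest of the 4, while for Eif3a, Eif3d and Eif3g it lies among the others.

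Eef1a1 (ENSMUSG00000037742, chromosome 9, 78478449 to 78489151, minus strand) was the seventh gene called lower, with 31965 reads in Old and 55678 in Young and a ratio of 0.629 (0.620 to 0.637). The other libraries lay near Young, with 52904 reads in the library labelled cKO and 51510 in WT. All 7 elongation factors tested had ratios below 1 in Old over Young, with a median of -0.44 over 9 genes. Eef2 had 18419 reads in Old and 27395 in Young, a ratio of 0.736 (0.723 to 0.750), but against WT, with 19188 reads, Old had a ratio of 0.962 (0.943 to 0.982). Eef1g, a subunit of the exchange factor eEF1B, had a ratio of 0.646 over Young (0.614 to 0.680), not called.

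Of the members, 9 are known TOP messenger RNAs: Eef1a1, Eef2, Eef1b2, Eef1d, Eef1g, Eif3e, Eif3f, Eif3h and Eif4b. All 9 had ratios below 1 in Old over Young, against 53.0% of all genes tested, and 3 were called lower, against 12.9%. Their median was -0.63, whereas the members not on that list had a median of -0.32. In Old over WT these medians lay closer, at -0.48 and -0.33. In the library labelled cKO over WT the medians were 0.06 and -0.06, both within the shift that scaling by platelet markers makes. To look for a tract at the annotated start, 30 bases were taken around the gene start of the RefSeq promoter table (GRCm38.p6), from 5 before it. Any longest run of at least 6 C or T that begins with C is in capitals. For Eef1a1 and Eif4g1 the RefSeq start lies well inside the deposited gene bounds, chr9:78478449-78489151 and chr16:20668313-20692884. The windows of 5 TOP members in the table are given first, then those of Eif3m, the lowest in Old, and of Eif2ak1 and Eif4g1, among the highest.
Eef1a1, chr9:78481700-78481729, minus strand: CCCTCTTCCCgagggtgggggagaacggta
Eef2, chr10:81176626-81176655, plus strand: cgggcgttgacgtcagcggtCTCTTCCgcc
Eif3f, chr7:108934410-108934439, plus strand: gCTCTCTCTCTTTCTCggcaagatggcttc
Eif4b, chr15:102073768-102073797, plus strand: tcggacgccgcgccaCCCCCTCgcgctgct
Eef1b2, chr1:63176826-63176855, plus strand: gttccgccggaagtagccgaggccttgcgt
Eif3m, chr2:105017003-105017032, minus strand: ggcgtgtttctggatcggagcgtcttccgc
Eif2ak1, chr5:143817787-143817816, plus strand: cttccgttggctcttgtgttacttccggct
Eif4g1, chr16:20672722-20672751, plus strand: gctccgCCCTCTgcgccggtcacgtggggc
In Eef1a1 and Eif3f the run spans the annotated start, whereas in Eef2 and Eif4b it begins 15 and 10 bases after it, and Eef1b2 has none of that length. A run anywhere in the window was present in 4 of the 5 TOP members, in 11 of the 46 other members in the table and in 22.9% of all 27025 genes of it. The annotated start need not be the start used in platelets, and a run in the window is a description only.

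A few members went the other way with age. Eif2ak1 (ENSMUSG00000029613, chromosome 5, 143817788 to 143904251, plus strand), whose kinase slows translation when haem is short, had 3788 reads in Old and 2663 in Young. Its ratio of 1.56 (1.48 to 1.64) was the highest of the members tested and was not called, while against WT, with 2207 reads, it was 1.72 (1.63 to 1.81) and was called. The library labelled cKO had the fewest Eif2ak1 reads, 1702. Eif4g1, the scaffold of the cap complex, had 6623 reads in Old and 5072 in Young, a ratio of 1.43 (1.38 to 1.48), and 6786 in the library labelled cKO against 4663 in WT, likewise a ratio of 1.43 (1.38 to 1.48). Both 3-month wild-type libraries lay below the other libraries for this gene, and neither ratio was called. Eif6, which keeps the ribosomal subunits apart, had 145 reads in Old and 106 in Young, a ratio of 1.5 (1.16 to 1.94), and Eif4ebp1 a ratio of 1.09 (1.04 to 1.14).

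Some scarce members had a low ratio in Old but too few reads to be tested. Eif2ak4, encoding the kinase activated by uncharged tRNA, had 16 reads in Old and 90 in Young. Eif4e3, an eIF4E relative, had 13 and 52, and Eef2k 27 and 79. In the authors' deposited table the members under an adjusted p of 0.05 in this comparison were Eif2ak4 at 0.00104, Eif3m at 0.00434 and Eif4e3 at 0.0257, all lower in Old, where 5.88% of all genes were higher and 6.51% lower.

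WT over Young compares a pair of wild-type libraries of the same age and sex. None of 49 members was called in either direction there, where 2.59% of all genes tested were called higher and 2.73% lower, and the median log2 ratio was 0.01. The ratios still ranged between 0.564 for Eif2b2, a subunit of eIF2B, and 1.56 for Eif5a2 (1.48 to 1.64), which shows the size that single ratios reach between such libraries. Eif3h at 1.38 (1.34 to 1.42) and Eif3m at 1.34 (1.18 to 1.52) were also higher in WT than in Young by more than counting error.

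Ratios between paralogues within a library do not depend on library scaling. Eif4a2 was 4.72 times Eif4a1 per length in the library labelled cKO (4.34 to 5.14) and 7.64 times in WT (7.07 to 8.26), and 8.08 times in Old (7.36 to 8.88) and 7.37 times in Young (6.83 to 7.96). The library labelled cKO alone lay apart. Eif5a2 over Eif5a was 0.822 in the library labelled cKO and 1.60 in WT, and 0.994 in Old and 0.909 in Young, so that here WT stood apart. Eif4g2 over Eif4g1 was 2.02 in the library labelled cKO and 3.47 in WT, and 2.04 in Old and 3.02 in Young. Eif2s3x over Eif2s3y, the X-linked and Y-linked copies of the gamma subunit of eIF2, was 2.11 in the library labelled cKO and 1.89 in WT, and 1.36 in Old and 1.76 in Young. Reads of near-identical copies are uncertain, since the sources used here do not say how shared reads were counted, and the listed pseudogene Eif4a-ps4 had 92 to 153 reads.

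**Figure D5:**
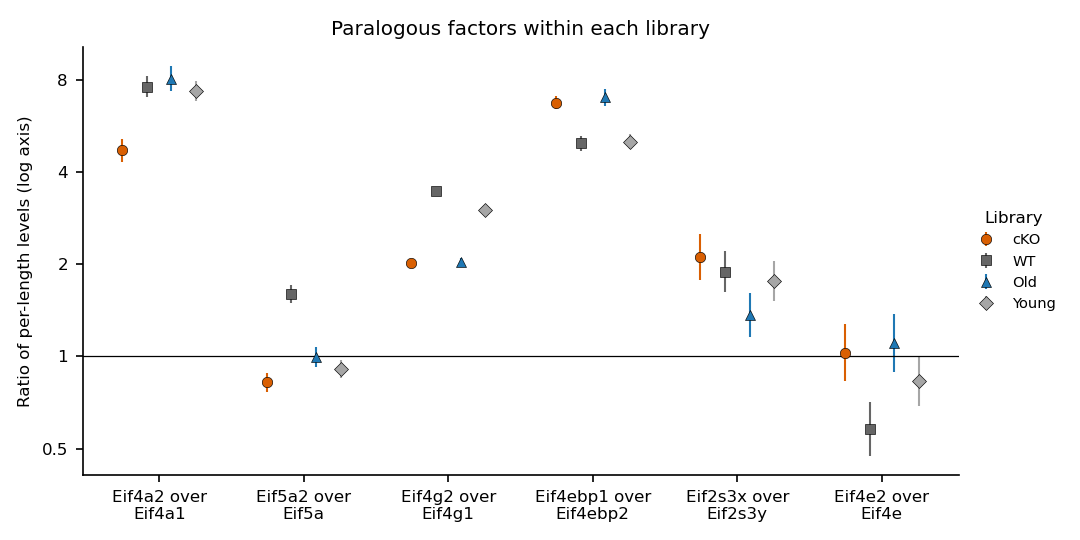
Ratio of per-length levels between paralogous members within each library (log axis), with 95% intervals for counting error. The library labelled cKO is lowest for Eif4a2 over Eif4a1, WT is highest for Eif5a2 over Eif5a, and both 3-month wild-type libraries lie above the others for Eif4g2 over Eif4g1.

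Genes around these factors were read from lists of known pathways. Of the integrated stress response targets, the genes that follow phosphorylation of eIF2, 2 of 7 tested were called higher in the library labelled cKO against WT and 0 lower, where 7.24% of all genes were higher and 6.28% lower. The median was 0.40 over those 7 and 0.60 over the 14 genes with enough reads for it. Against Young the list median was 0.32. The genes called were Ppp1r15a, a phosphatase subunit that reverses that phosphorylation, with 134 reads against 52 and a ratio of 2.53 (1.83 to 3.56), and the transcription factor Ddit3, with 391 against 185 and 2.08 (1.74 to 2.49). In Old over Young 1 of 8 was called higher and 2 lower, where 10.4% of all genes were higher and 12.9% lower. The median over 13 genes was 0.49, and it was 0.33 with total reads and 0.08 with platelet-marker scaling. Among them Cebpb, a transcription factor also abundant in myeloid cells, had 245 reads in Old against 82 in Young, and Ddit3 87 against 195. The other gene called lower was Phgdh, an enzyme of serine synthesis. Neutrophil markers were 29.6 times higher in Old than in Young in sum, with 10 of 10 tested called higher, and their part in these results was not tested.

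The mTORC1 and TOP regulators had 0 of 13 called in the library labelled cKO over WT, where 7.24% of all genes were higher and 6.28% lower. With so few genes, that count cannot be told apart from those shares. In Old over Young 2 of 14 were called lower and 1 higher, close to the 12.9% and 10.4% of all genes. The higher gene was Mknk1, encoding a kinase of eIF4E. The lower genes were Larp4, a poly(A)-binding protein of the La family, with 97 reads in Old against 261 in Young, and Pdcd4, an inhibitor of eIF4A, with 444 against 919 and a ratio of 0.529 (0.471 to 0.593). In Old over WT 1 of 14 was called lower and 2 higher, against 13.3% and 12.1% of all genes. Larp4 and Pdcd4 were thus not both called there. The list median was -0.24 over Young and 0.13 over WT. Among the poly(A)-binding proteins and their regulators, with 6 tested in each comparison, Pabpc4, a cytoplasmic poly(A)-binding protein, had 655 reads in the library labelled cKO against 343 in WT, a ratio of 1.88 (1.64 to 2.14), and 220 in Old against 494 in Young with a ratio of 0.488 (0.414 to 0.573). No other gene of that list was called in either comparison. Pabpc4 was lower in WT than in Young, and its call in the library labelled cKO was not kept against Young. There 0 of 6 genes of the list were called, where 6.78% of all genes were called higher and 3.7% lower. Against the 343 reads of WT, the 220 reads of Pabpc4 in Old were a smaller difference than against Young. Dhps, which makes hypusine on eIF5A, had 54 reads in the library labelled cKO and 118 in WT, a ratio of 0.450 (0.320 to 0.625), called lower. Over Young its ratio was 0.554, not called. The other listed hypusine enzyme had too few reads to be tested.

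The aminoacyl-tRNA synthetases, which charge tRNAs for elongation, had 1 of 20 called lower and 0 higher in the library labelled cKO against WT. Over all genes tested there, 6.28% were called lower and 7.24% higher, so the number called lower is near the background. The synthetase median was -0.12, and scaling by platelet markers turned it to 0.06. In Old over Young 6 of 19 were called lower and 0 higher, against 12.9% and 10.4% of all genes, with a median of -0.65. Iars had 31 reads in Old and 177 in Young, a ratio of 0.192 (0.127 to 0.282), and Farsa 36 and 122, a ratio of 0.323 (0.216 to 0.472). Of 4 termination and recycling factors tested, Gspt1, the release factor eRF3a, alone was called lower in Old, with 140 reads against 306 and a ratio of 0.501 (0.407 to 0.614). Called lower in Old were 6 of 13 eIF3 subunits, 6 of 19 synthetases, 1 of 7 elongation factors and 1 of 4 termination factors. Over all genes tested the share was 12.9%. These groups are too small for their counts to be ranked. The interval lay wholly below 1 for all 7 elongation and all 4 termination factors tested, against 40.5% of all genes tested. The termination median was -0.62 over 7 genes, near those of the synthetases and of eIF3 (-0.69). The mitochondrial translation factors had a median of -0.11 over 9 genes, with 0 of 2 tested called, and the eIF2 alpha kinases a median of 0.15 over 3 genes, which platelet-marker scaling turned to -0.25. In Old over Young, 8 of 9 B cell markers were called lower, with a summed ratio of 0.305. Of 5 T and NK cell markers tested 3 were called lower, with a summed ratio of 0.550, and erythroid markers had 4 of 10 called lower and a summed ratio of 0.582. Against WT the summed ratio of Old was 0.863 for T and NK cell markers and 1.40 for erythroid markers. Of 8 erythroid markers tested there 4 were called higher and 0 lower, against 12.1% and 13.3% of all genes. Of 4 monocyte and macrophage markers tested 3 were called higher, although their sum, almost all of it Lyz2, had a ratio of 0.812. Platelet markers had 5 of 9 called higher and a summed ratio of 1.32. The part of these cells in the lower levels of translation factors was not tested. In the library labelled cKO over WT, erythroid markers had 10 of 11 called higher and 1 lower, against 7.24% and 6.28% of all genes tested. The summed ratio was 1.88 for erythroid markers and 0.879 for platelet markers. Over Young the summed ratios of that library were 0.800 and 1.06, with 5 of 11 erythroid markers called higher and 1 lower. There 6.78% of all genes were called higher and 3.7% lower. The part of these markers in the ratios of Eif4ebp1, Eef2k and Eif4a2 was not tested.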

How the data were processed

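RNA of platelets was sequenced in 4 libraries, each a pool of 7 mice. The submitters' processing notes name build mm10, DESeq2 1.20.0, featureCounts 1.5.0-p3, HISAT2 2.0.5 and CASAVA, without their roles. Strand use and the treatment of shared reads are not given in the sources used here. Per gene, the authors deposited 2 tables of scaled signal, in which each value is a number of reads multiplied by a step of its library, with a small offset. Undoing this returned whole reads for 100% of values within 0.02 read. The design assumed counts, so the analysis was run on these reads. Genes under 2 reads over both libraries are not listed. Per the file headers, the deposited tables also give log2 fold changes and p-values, raw and adjusted. A further 4 per-sample columns match no sample and were not used.

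With 1 library per group no test across samples was made. Ratios use TMM-scaled library sizes (edgeR 4.0.16, R 4.3.3) for each pair, on genes in both tables where a pair crosses them, with an exact 95% Clopper-Pearson interval. Since reads carried no stated molecular identifiers, the interval covers counting error only. Medians use log2 with a pseudocount of 0.5 read over genes with at least 20 reads in both libraries summed. The steps were tested on simulated data. Members and lists were chosen with earlier results of these data known, and Eif1a was added to the scanning factors afterwards. Named members were those called, the 10 highest in level, the 6 highest and 6 lowest ratios per comparison, the 3 highest of each role, paralogues, and the 2 largest changes of each pathway list. Genes named outside that rule, Elavl1 and the marker genes apart, were chosen after their values were seen.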

Additional observations from a re-analysis of the deposited data

How the results depend on the processing

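No direction of a called member was reversed when the other 3-month library was used. The other alternatives change the ratios too little, or not at all, to reverse a call. In the library labelled cKO over WT (2 members higher, 4 lower, median -0.01), scaling by platelet markers, chosen after seeing the data, gave 7 higher, 2 lower and a median of 0.18, and Eif3m (0.619) and Eif5a2 (0.650) were no longer called. A bound of 2-fold left 1 higher and 0 lower (2.52% and 1.71% of all genes), and a bound past 1 gave 16 higher and 18 lower (32.7% and 33.3% of all genes). Young in place of WT gave 2 higher and 1 lower (6.78% and 3.7% of all genes). No minimum of reads gave 3 higher. In Old over Young (0 higher, 7 lower, median -0.36), total reads gave 12 lower, DESeq2 size factors 1 higher (Eif2ak1), and platelet markers 23 lower with a median of -0.76. A minimum of 20 reads gave 11 lower, as did no minimum. A bound of 2-fold left 1 lower (Eif3m, with 4.3% of all genes), and a bound past 1 gave 4 higher and 36 lower (35.6% and 40.5% of all genes). WT in place of Young gave 1 higher and 9 lower (12.1% and 13.3% of all genes). The cause of these shifts was not tested. Another scaling moves the log2 ratio of every gene alike. Shares of all genes called were not computed for the other scalings or read minima, so those counts describe the members only. The 10 members highest in level were the same when per-length values were scaled to a common total. No paired analysis was possible because each group has 1 library and the labels give no replicate numbers, and no library could be left out. Depth limits the scarce members: 15 had fewer than 100 reads in the library labelled cKO and 18 in WT, and 19 in Old and 15 in Young.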
